A study of Mus musculus with 9 samples.

Results

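Honokiol (HNK) treatment was compared with vehicle in the liver of MUP-uPA mice on Clariom S mouse arrays, where the fluorescence of several short probes stands for the RNA level of a gene. The comparison takes its members from the sample labels, and holds 6 of the 9 arrays of the series, 3 from MUP-uPA mice given vehicle (MUP) and 3 from MUP-uPA mice given honokiol (HNK). The other 3 arrays are from wild-type littermates (WT), labelled as controls, and enter through the shared estimate of the spread. The study gives vehicle as the treatment of its WT littermates. All mice were male C57BL/6 animals of 40 weeks, fed a high-fat diet from week 6 and the tissue is labelled as non-tumor liver of mice harboring hepatocellular carcinoma. The HNK mice had 3 intraperitoneal injections of honokiol a week between weeks 32 and 40, each of 10 mg/kg, and the vehicle was PBS with Intralipid. The MUP-uPA transgene drives urokinase plasminogen activator from the major urinary protein promoter, which is active in hepatocytes, so that MUP and HNK mice both carry it. The series' design mentions 6 mice, whereas 9 samples in 3 groups are labelled. No label names the animal behind an array, so p-values measure the spread between these samples.

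Honokiol is a biphenol from magnolia bark. Overproduced urokinase stresses the endoplasmic reticulum (ER) of the hepatocyte, and with fat feeding such livers go on to steatohepatitis and tumors. ER stress is sensed by 3 transmembrane proteins, IRE1, ATF6 and PERK, which raise chaperones, degradation factors and amino acid genes through XBP1, cleaved ATF6 and ATF4. FKBP5 is a co-chaperone that sits on HSP90 with the glucocorticoid receptor and lowers its affinity for hormone, and its gene is itself a receptor target. EGFR is abundant on hepatocytes and signals through ERK.

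A single model was fitted with limma over all 22206 probe sets and all 9 arrays, and differences are given as HNK minus MUP on the log2 scale. After adjustment over all probe sets, 1 was higher in HNK (0.0045% of those tested) and 0 were lower (0%). Before adjustment, at a p under 0.05, 463 had a higher mean (2.09%) and 505 a lower one (2.27%). Without regard to the model, the 3 HNK arrays lay all above the 3 MUP arrays for 912 probe sets (4.11%) and all below them for 995 (4.48%). The median difference over all probe sets was -0.0099, and 51.5% had a lower mean in HNK. Groups of 3 arrays that do not overlap give p = 0.1 in an exact permutation test, the smallest value that 3 against 3 allows, so no single gene can pass that test. No named gene passed the adjusted threshold, and the named genes below are therefore described by their values on each array.

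The 1 probe set that passed is TC0400000401.mm.2, which has no gene name in the annotation used here. It lay at 4.95, 4.72 and 4.35 in MUP 1 to MUP 3, no brighter than the negative controls' median on any of them, and at 7.11, 7.20 and 6.92 in HNK 1 to HNK 3. The HNK mean was therefore at least 4.05-fold higher (adjusted p = 0.0052 from limma). In WT it lay at 6.36, 6.11 and 6.40, between the other groups. The call was lost without HNK 1 (adjusted p = 0.057 from limma), when WT was left out of the fit (0.075) and without MUP 2 and HNK 3 (0.084). The predicted gene Gm3893 had a similar order, at 4.68, 4.90 and 5.20 in MUP and 7.39, 8.23 and 7.32 in HNK. Its HNK mean was at least 5.78-fold higher, and it did not pass (adjusted p = 0.127 from limma), though it did with the muscle level described below as a covariate (0.0446).

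MUP 2 and HNK 3 stood apart from the other 7 arrays by skeletal muscle RNA. The median of 15 fast muscle genes, among them the myosin heavy chain genes Myh1, Myh2 and Myh4, was 12.23 in MUP 2 and 12.04 in HNK 3, and lay between 3.98 and 4.44 on the other 4 arrays of both groups. Slow muscle genes had medians of 8.62 and 8.14 on these arrays, against 4.92 to 5.87. Each group holds 1 of these arrays, and they correlated with each other (r = 0.989 over all probe sets) more than MUP 2 did with MUP 1 and MUP 3 (0.974 and 0.979). The labels do not tie these arrays to each other, and whether they share a dissection or had their labels exchanged was not tested, so their separate values are to be read with that limit. Medians of several lists below are therefore also given without both of them, and genes with the muscle level as a covariate where the call moves. Differences of single genes are given over all MUP and HNK arrays unless stated, and some of them move without MUP 2 and HNK 3. For example, Hbb-bs went from -1.39 to -0.92 and Trim24 from -1.27 to -1.57.

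**Figure D1:**
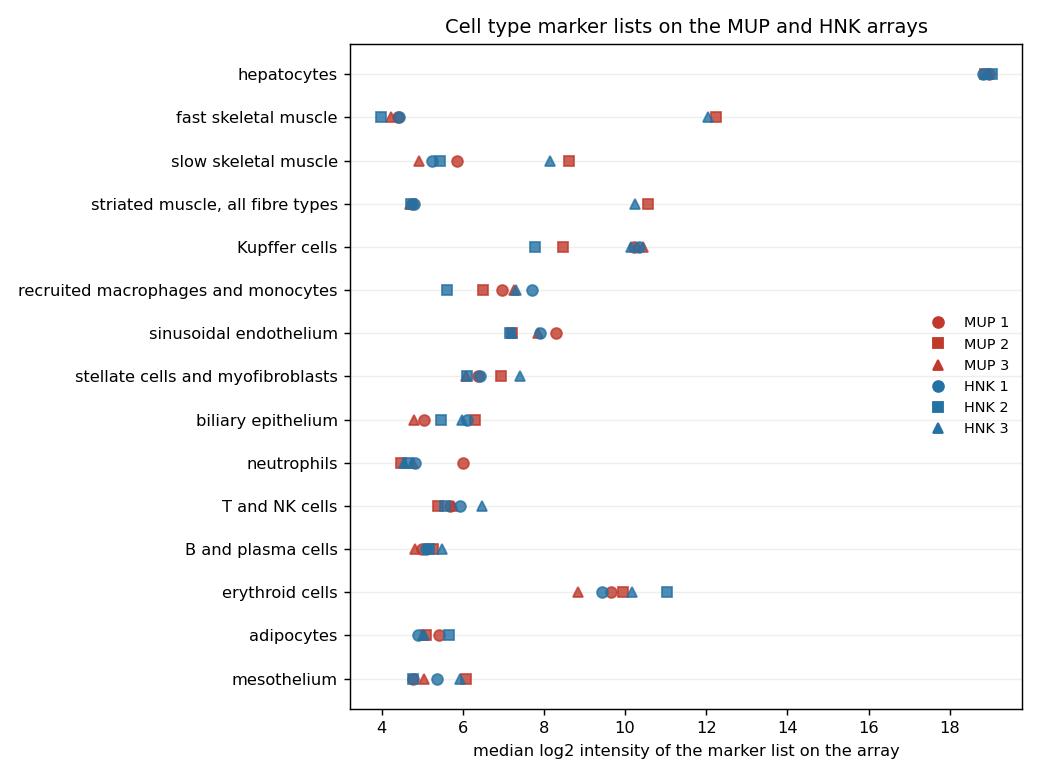
Median log2 intensity (x axis) of the genes of each cell type marker list (y axis) on the 3 MUP arrays (red) and the 3 HNK arrays (blue), with circles, squares and triangles for arrays 1, 2 and 3. The hepatocyte list lies between 18.81 and 19.04 on all 6 arrays, while the fast skeletal muscle list is at 12.23 in MUP 2 and 12.04 in HNK 3 and at most 4.44 on the others.

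Hepatocyte genes checked the tissue. The 14 measured markers, such as Alb and Ttr, had medians from 18.81 to 19.04 on the 6 arrays, near the top of the scale. The hepatocyte nuclear receptor gene Hnf4a was the exception in this list, at 12.25, 12.34 and 12.26 in MUP and 11.58, 11.70 and 11.90 in HNK. It was the 1 marker whose groups did not overlap (7.14%, against 4.48% of all probe sets). Its difference was -0.55 (SE 0.17, adjusted p = 0.998 from limma). The 14 Kupffer cell markers had a median of 7.78 in HNK 2 and 8.46 in MUP 2, against 10.15 to 10.44 on the other 4 arrays. Of them 13 had a lower mean in HNK. In either direction 0 separated the groups, against 4.11% of all probe sets higher and 4.48% lower. The median difference was -0.24, or -0.78 without MUP 2 and HNK 3, and leaving out 1 array gave -0.59 to 0.33. In such bulk tissue, fewer cells of a type and less RNA per cell cannot be told apart.

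All 18 measured genes of ER chaperones and folding enzymes had a lower mean in HNK, and 4 of them (22.2%, against 4.48% of all probe sets) had all HNK arrays below all MUP arrays. The median difference of the list was -0.30, against -0.0099 over all probe sets. It was -0.14 without HNK 1 and -0.54 without HNK 2. The 4 genes were Creld2, Manf, Dnajb9 and Hspa5.

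Creld2 encodes a secreted ER protein that is induced by unfolded proteins. It lay at 9.50, 9.90 and 10.47 in MUP 1 to MUP 3 and at 7.72, 8.61 and 7.41 in HNK 1 to HNK 3. All HNK arrays were lower than all MUP arrays, by 0.89 at the closest, and HNK 2 was the nearest to MUP. The difference was -2.04 (SE 0.39, 95% interval -2.89 to -1.19, adjusted p = 0.527 from limma), which is a 4.12-fold higher mean in MUP. Manf, a secreted survival factor that binds the chaperone BiP, measured 14.87, 14.64 and 14.90 in MUP and 13.33, 14.16 and 12.77 in HNK. HNK 2 was again the highest of the HNK arrays, and the difference was -1.38 (SE 0.30, adjusted p = 0.758 from limma). Dnajb9, an HSP40 co-chaperone that holds IRE1 in check, was at 13.63, 14.30 and 13.64 in MUP. Its HNK values of 12.61, 12.63 and 12.51 were close to each other and all lower than MUP, with a difference of -1.27 (SE 0.28, adjusted p = 0.758 from limma). Hspa5, which encodes BiP, the main chaperone of the ER, measured 17.30, 17.55 and 17.57 in MUP and 16.54, 17.13 and 16.76 in HNK. That is a smaller difference, of -0.67 (SE 0.18, adjusted p = 0.998 from limma), again without overlap.

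The other 14 genes overlapped between the groups, with differences from -0.84 to -0.07. In several of them HNK 2 lay as high as MUP. The chaperone gene Hyou1 was at 13.14, 13.18 and 13.28 in MUP and at 11.88, 13.38 and 11.84 in HNK, with HNK 2 the highest of the 6 arrays. Hsp90b1, the ER form of HSP90, was at 16.66, 16.44 and 16.65 in MUP and 15.91, 16.92 and 16.02 in HNK. The co-chaperone gene Sdf2l1 ranged from 8.56 to 8.84 in MUP and from 7.22 to 9.45 in HNK. In WT, Hspa5 lay at 17.85, 17.79 and 18.21 and Creld2 at 9.67, 9.33 and 10.62, so that all WT values of both genes were above all HNK values.

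The ER stress response element is the DNA motif through which ATF6 and XBP1 are known to raise chaperone genes. It was searched on both strands as CCAAT, any 9 bases and CCACG in the RefSeq promoter windows of GRCm38.p6, and its short form as ATTGG, any 1 base and CCACG. Of the 18 chaperone and folding genes 16 had a promoter in the table, and 8 of these (50.0%) held the long form, against 0.137% of 27025 genes. The short form was in 1 of 16 (6.25%), against 0.0444%. Among the 4 genes that separated the groups, Creld2 and Hspa5 held the long form and Dnajb9 held neither. Manf had no entry. Calr, Canx and Pdia6, whose arrays overlapped, held it too. The windows of Creld2 and Hspa5 are shown with the degradation genes Syvn1 and Herpud1, which have the long and the short form, and capitals mark the motif.
Creld2: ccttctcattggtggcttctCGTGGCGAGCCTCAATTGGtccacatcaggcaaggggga
Hspa5: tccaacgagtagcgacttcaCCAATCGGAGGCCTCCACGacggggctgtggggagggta
Syvn1: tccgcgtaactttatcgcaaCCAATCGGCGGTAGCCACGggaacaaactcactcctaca
Herpud1: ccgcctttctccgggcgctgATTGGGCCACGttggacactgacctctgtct
They lie on the plus strand at chr15:88819500-88819558, chr2:34772005-34772063, chr19:6046512-6046570 and chr8:94386357-94386407, in that order. The motif starts 126, 65, 44 and 52 bases before the gene's start. A match is a description of the letters, not of binding. The shares take in listed genes whatever their array values, so they describe the list and not the treatment.

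**Figure D2:**
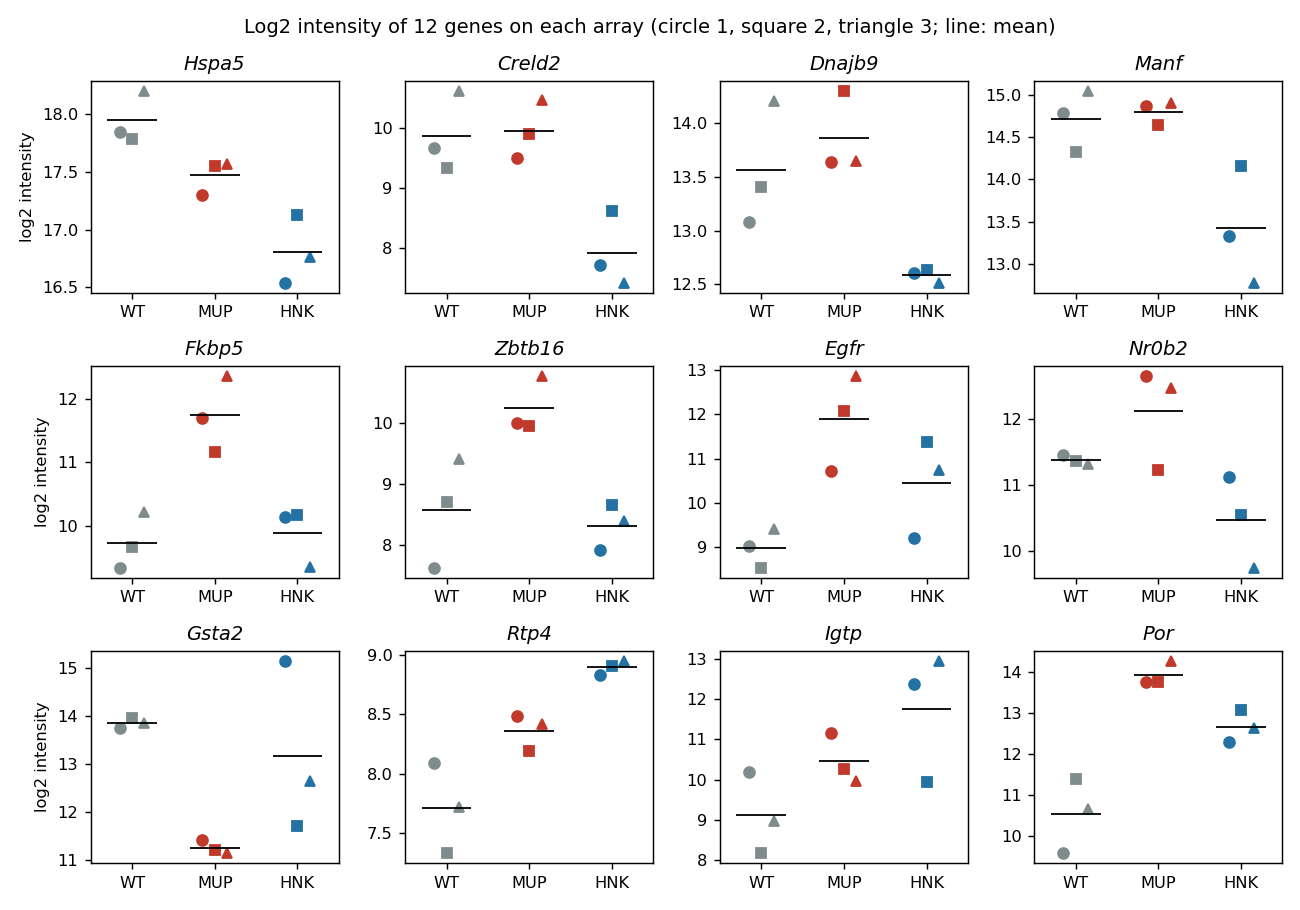
Log2 intensity (y axis) of 12 genes on each array of WT (grey), MUP (red) and HNK (blue), with circles, squares and triangles for arrays 1, 2 and 3 and a line at the mean of the 3 arrays. Creld2, Dnajb9, Manf, Hspa5, Fkbp5, Zbtb16, Nr0b2 and Por are lower on all HNK than on all MUP arrays, while Egfr and Igtp overlap.

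Among genes of ER-associated degradation (ERAD), translocation into the ER and the secretory pathway, 13 of 19 had lower and 6 had higher means. The median difference was -0.10, and -0.06 without HNK 3 to -0.20 without MUP 1, MUP 2 or HNK 2. All HNK arrays lay below MUP in 4 genes (21.1%, against 4.48% of all probe sets) and above in 1 (5.26%, against 4.11%). Syvn1, the ubiquitin ligase of ERAD, was at 8.85, 8.77 and 8.69 in MUP and 7.44, 7.99 and 7.74 in HNK. All HNK arrays were lower by at least 0.71, with a difference of -1.05 (SE 0.30, adjusted p = 0.998 from limma). Its adaptor gene Sel1l separated the groups by less than 0.01 at the closest, with a difference of -0.38. Herpud1, a membrane scaffold of the same complex, was at 16.82, 16.86 and 16.68 in MUP and 15.94, 16.36 and 15.28 in HNK, and Sec23b, a coat protein of the vesicles that leave the ER, had a difference of -0.61. The gene with all HNK arrays above MUP was Ssr1, which encodes a protein of the translocon (0.28).

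The sensors and the ATF4 and CHOP branch did not share this order. Of 20 measured genes 11 had lower and 9 had higher means, the median was -0.04, and 6 lay near the negative controls in both groups. Xbp1 was at 13.67, 14.44 and 14.20 in MUP and 13.41, 13.91 and 13.98 in HNK, which overlap. Atf4 overlapped widely, with a difference of 0.02 (95% interval -0.51 to 0.55). Ddit3, which encodes the stress factor CHOP, was highest in MUP 2, at 9.01, with the other 5 arrays between 7.97 and 8.36. Atf6 had a difference of -0.31, with HNK 1 at 12.17 inside the MUP range of 12.15 to 12.24. All HNK arrays lay below MUP in 2 genes of this list, Chac1 and Ppp1r15a (10%, against 4.48% of all probe sets). Both lay at or below the negative controls on most arrays of both groups, and no fold is given for them.

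Among the genes of the glucocorticoid receptor, its chaperones and its targets, 14 of 19 had lower means in HNK and 5 of 19 (26.3%, against 4.48% of all probe sets) had all HNK arrays below MUP. The median of -0.12 was -0.38 without MUP 1, 0.03 without MUP 2 and -0.06 without MUP 2 and HNK 3. Fkbp5 lay at 11.69, 11.15 and 12.36 in MUP and at 10.14, 10.17 and 9.36 in HNK. The closest of the arrays, MUP 2 and HNK 2, were 0.99 apart. Its difference was -1.85 (SE 0.34, adjusted p = 0.527 from limma), and with the muscle level as a covariate it was -1.86 (adjusted p = 0.0446 from limma). Leaving out 1 array at a time gave -2.14 to -1.53, all with an adjusted p over 0.05. In WT the gene was at 9.33, 9.66 and 10.21, beside HNK. Since the study selected Fkbp5 and Egfr on these arrays, their direction here is not independent evidence. The study also reported both as lower with honokiol by real-time qPCR and, as proteins, by immunoblot.

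Genes of the HSP90 chaperone cycle were measured beside it. Hsp90aa1, the stress-induced form of cytosolic HSP90, was at 14.06, 13.75 and 14.22 in MUP and 13.52, 13.52 and 13.65 in HNK, a difference of -0.45 (SE 0.17). Stip1, which joins HSP70 to HSP90, was at 11.42, 11.71 and 11.41 in MUP and 10.72, 11.10 and 11.08 in HNK. Both groups of arrays were separate in these genes, by 0.10 and 0.31. Hsph1, an HSP110 of the cytosol that is no member of the list, was at 9.96, 10.46 and 10.35 in MUP and at 8.36, 9.47 and 9.38 in HNK (-1.19, SE 0.30). Nr3c1, the receptor gene itself, overlapped, at 7.76, 8.63 and 8.83 against 8.29, 8.23 and 8.50, with a 95% interval of -0.69 to 0.56. Hsp90ab1 has no single-gene probe set in the annotation used here.

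Receptor targets differed among themselves. Zbtb16, a zinc finger gene raised by glucocorticoids, was between 9.95 and 10.78 in MUP and at 7.91, 8.65 and 8.39 in HNK. These groups were 1.30 apart at the closest, the widest gap of the list, and the difference was -1.93 (SE 0.40, adjusted p = 0.724 from limma). Pck1, the first committed enzyme of gluconeogenesis, overlapped through MUP 2 and HNK 2, at 15.78 and 16.20, and had a difference of -1.06. The searched form of the glucocorticoid element, AGAACA, any 3 bases and TGTTCT, occurred in 0.0111% of all genes with a promoter window, and in this list in that of Sgk1 alone, of 15 genes with an entry.

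Among the lists described here, circadian clock genes had the highest share of separated members. Of 19 measured genes 8 (42.1%, against 4.48% of all probe sets) had all HNK arrays below all MUP arrays, 0 had them above, and the median was -0.35, or -0.20 without HNK 2. The separated genes were Ciart, Per1, Per2, Per3, Nfil3, Cry1, Nampt and Tef, the last at or below the negative controls in HNK. Ciart encodes a transcriptional repressor within the clock, and lay at 8.53, 8.73 and 8.91 in MUP and 6.75, 8.42 and 6.67 in HNK. HNK 2 lay only 0.10 below the lowest MUP array, and the other HNK arrays far below it. Per2, of the period repressors, was at 8.17, 8.30 and 8.10 in MUP and 7.35, 7.96 and 7.49 in HNK, and Per1 at 7.09, 6.78 and 7.12 against 6.08, 6.61 and 5.66. Nfil3, a repressor of the D-box genes, was at 8.30, 7.48 and 8.28 against 7.48, 7.20 and 6.87, where MUP 2 and HNK 1 differed by less than 0.01. Dbp, an activator at the same sites and one of the strongest output genes, overlapped, at 15.11, 15.40 and 15.10 against 15.05, 15.23 and 15.25. Arntl, which encodes BMAL1, had overlapping values of 5.86 to 6.09 in MUP and 4.71 to 6.21 in HNK. No source used here gives the hour at which each animal was sampled, and its part in these values was not tested.

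**Figure D3:**
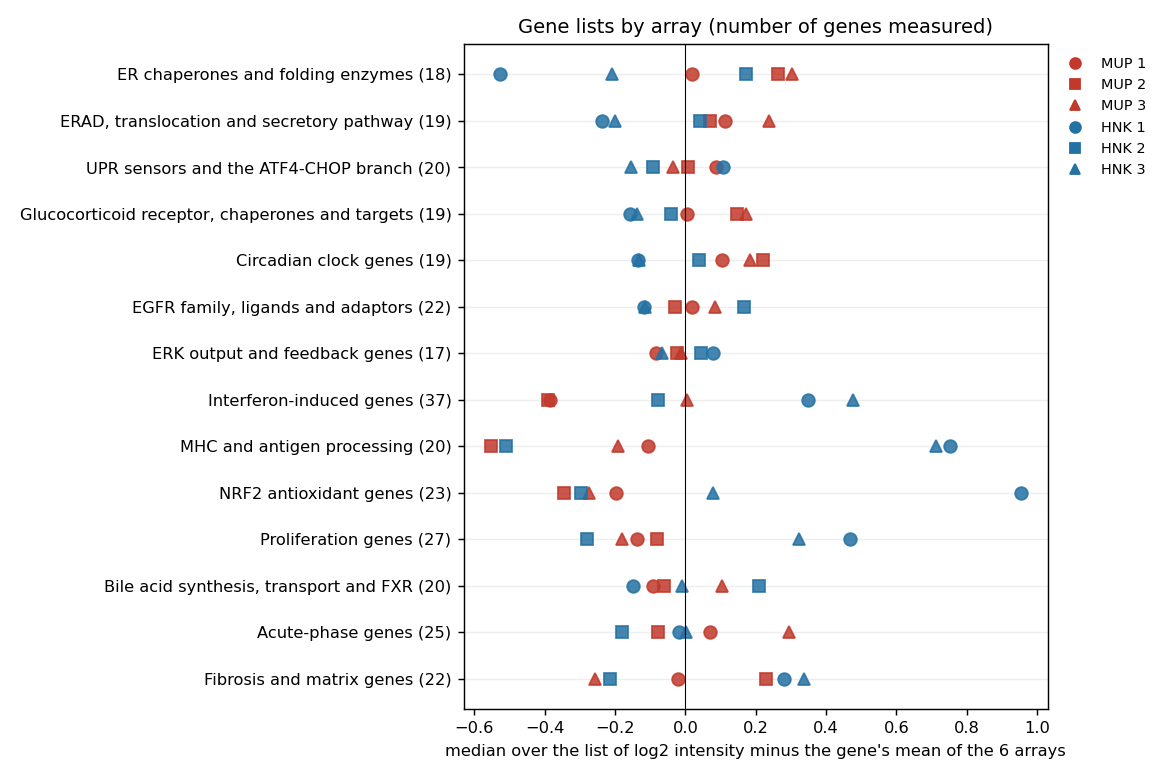
Median over the genes of each list (y axis, with the number measured) of the log2 intensity minus the gene's mean over the 6 arrays (x axis), with MUP in red and HNK in blue and circles, squares and triangles for arrays 1, 2 and 3. In the MHC, NRF2 and proliferation lists HNK 1 and HNK 3 lie right of all MUP arrays while HNK 2 does not, and in the ER chaperone list HNK 2 lies beside MUP.

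EGFR and its ligands were followed because the study turns on this receptor. Egfr lay at 10.73, 12.08 and 12.87 in MUP and 9.22, 11.37 and 10.75 in HNK. HNK 2 and HNK 3 were both above MUP 1, so the groups overlapped, and the difference was -1.45 (SE 0.57, adjusted p = 0.998 from limma). Leaving out 1 array at a time gave -2.03 to -0.83, and WT lay lower than MUP at 9.02, 8.53 and 9.42. Nrg4, a secreted ligand of the ERBB receptors, was at 9.97, 10.70 and 10.71 in MUP and 9.17, 9.66 and 9.27 in HNK, without overlap (-1.10, SE 0.33). Erbb3, the kinase-poor partner of the family, was at 8.91, 9.34 and 10.04 against 9.68, 9.78 and 9.67, and Errfi1, which encodes the feedback inhibitor MIG6, at 16.80, 17.41 and 17.45 against 16.47, 17.32 and 17.38. Over the 22 measured genes of the family, its ligands and adaptors, 14 had lower and 8 had higher means. Their median was -0.04, or -0.12 without MUP 2 and HNK 3.

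Genes that ERK activity raises had no common direction. Of 17 measured 9 had higher and 8 had lower means, with a median of 0.03. Egr1, an immediate early factor, was at 7.10, 6.03 and 6.33 in MUP and 6.05, 5.10 and 5.21 in HNK. HNK 1 lay just above MUP 2, and the difference was -1.04 (SE 0.33, adjusted p = 0.998 from limma). Spred2, an inhibitor of RAF activation, had all HNK arrays higher, at 8.63, 8.25 and 8.45 against 7.81 to 8.07. Myc was highest in HNK 3 and lowest in HNK 2, at 7.21 and 5.20.

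Antioxidant genes of the NRF2 pathway had higher means in HNK for 22 of 23 measured, with a median of 0.45. NRF2 is the factor that electrophiles release to induce glutathione and detoxification enzymes. The size of the median turned on single arrays, since it was 0.15 without HNK 1 and 0.88 without HNK 2. It was 0.58 without MUP 2 and HNK 3. Gsta2, a glutathione transferase, measured 11.42, 11.20 and 11.14 in MUP and 15.15, 11.71 and 12.65 in HNK. All HNK arrays were higher, HNK 2 by only 0.29 over MUP 1, and HNK 1 stood alone above the WT range of 13.76 to 13.95. The difference was 1.91 (SE 0.62, adjusted p = 0.998 from limma), and 0.92 without HNK 1. Srxn1, which repairs oxidized peroxiredoxins, was at 7.09, 7.13 and 7.38 against 9.25, 7.58 and 7.97, and Pgd, of the pentose phosphate pathway, at 8.50, 8.31 and 8.04 against 9.60, 8.74 and 8.73. Of the 23 genes these 3 were without overlap, while 4.11% of all probe sets were so in this direction. Gstm3 spanned 12.52 to 16.63 in HNK and 11.85 to 13.48 in MUP, Nqo1 was at 8.52, 8.13 and 8.78 against 10.19, 8.22 and 8.94, and the heme oxygenase gene Hmox1 had a difference of 0.04, with MUP 2 and HNK 2 lowest in their groups.

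Interferon-induced genes had higher means in 35 of 37 measured, with a median of 0.42 that became 0.27 without MUP 2 and HNK 3. In 6 of 37 (16.2%, against 4.11%) all HNK arrays lay above all MUP arrays. Usp18, a protease that removes ISG15 from proteins, was at 8.04, 8.43 and 8.41 in MUP and 9.06, 9.35 and 9.26 in HNK. All HNK arrays were higher by at least 0.63, and the difference was 0.93 (SE 0.25, adjusted p = 0.998 from limma). Rtp4 was at 8.48, 8.19 and 8.42 against 8.83, 8.91 and 8.95, and Ddx58, which encodes the RNA sensor RIG-I, at 8.75, 8.79 and 9.24 against 9.43, 9.31 and 9.52. Each of these 3 genes had HNK 2 with the other HNK arrays.

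In other genes of these lists the HNK arrays were split. Igtp, a GTPase of immunity to vacuolar parasites, was at 11.16, 10.26 and 9.97 in MUP and 12.38, 9.95 and 12.95 in HNK, with HNK 2 the lowest of all 6. Gbp3 was at 9.13, 10.04 and 10.21 against 11.41, 9.94 and 12.01, and Irgm1 at 11.69, 11.53 and 11.94 against 12.73, 11.67 and 13.07. The T cell chemokine gene Cxcl9 was at 12.08, 11.73 and 12.94 in MUP, 15.98 in HNK 1, 10.72 in HNK 2 and 15.19 in HNK 3. HNK 1 and HNK 3 were thus above all MUP arrays in these 4 genes, which were chosen to show this, and HNK 2 was not. Whether they differ from the rest of the list was not tested.

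The interferon element was searched as GAAA, any 2 bases and GAAA. Of the 37 interferon genes 27 had a promoter in the table, and 20 of these (74.1%) held a match, against 3.99% of all genes. The share takes in listed genes whatever their array values, so it describes the list and not the treatment. Of the separated genes named above, Usp18 and Rtp4 had no entry. For Ddx58 no match before the gene's start was found. Gbp3 and Ifit3, whose groups overlap, are shown with their overlapping or repeated matches in capitals, read here on the opposite strand as TTTC, 2 bases and TTTC.
Gbp3: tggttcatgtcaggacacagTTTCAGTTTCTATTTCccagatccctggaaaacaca
Ifit3: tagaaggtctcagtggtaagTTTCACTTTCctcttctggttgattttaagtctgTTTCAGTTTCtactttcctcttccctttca
Both lie on the plus strand of GRCm38.p6, at chr3:142559979-142560034 and chr19:34583353-34583436. Ifit3, whose product binds viral RNA with other IFIT proteins, was at 9.49, 9.56 and 10.77 in MUP and 10.88, 10.47 and 11.12 in HNK, so that MUP 3 lay above HNK 2.

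MHC and antigen processing genes had their highest medians in HNK 1 and HNK 3. Of 20 measured 19 had higher means, with a median of 0.55. It was 0.28 without HNK 1, 0.33 without HNK 3, 1.07 without HNK 2 and 0.28 without MUP 2 and HNK 3. H2-Q4, a nonclassical class I gene, separated the groups, at 8.41, 8.58 and 8.35 against 9.83, 8.99 and 10.27 (1.25, SE 0.29, adjusted p = 0.914 from limma). H2-T23 did so at 13.88, 13.22 and 13.51 against 14.83, 13.98 and 14.31. They were the 2 genes of the list without overlap (10%, against 4.11% of all probe sets). The class I genes are close copies of each other, and their probe sets may share signal. The immunoproteasome gene Psmb9 was at 9.51, 9.20 and 9.68 in MUP and 10.63, 9.14 and 11.16 in HNK, and the peptide transporter gene Tap1 at 9.71, 8.98 and 9.32 against 10.82, 8.95 and 10.66. All 15 measured T and NK cell markers had a higher mean in HNK, with a median of 0.43 that was 0.18 without HNK 3 and 0.11 without MUP 2 and HNK 3. HNK 3 had the highest median of this list, 6.49. Cd4 was the 1 marker without overlap (6.67%, against 4.11% of all probe sets), at 6.39, 6.84 and 6.99 against 7.14, 7.38 and 7.68. Their part in the interferon and MHC values was not tested.

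HNK 1 and HNK 3 also had the highest medians of the proliferation genes. Of 27 measured 24 had higher means, with a median of 0.42 that was 0.25 without HNK 1 and 0.28 without MUP 2 and HNK 3, and 8 lay near the negative controls in both groups. Mki67, which marks cycling cells, was at 6.94, 7.22 and 6.30 in MUP and 8.67, 5.89 and 8.63 in HNK. HNK 1 and HNK 3 were above all MUP arrays and HNK 2 below them, and its difference was 0.91 (SE 0.60). The mitotic cyclin gene Ccnb2 was at 5.47, 6.46 and 5.78 against 6.52, 6.24 and 7.02, where MUP 2 lay above HNK 2. The 2 genes of this list without overlap were Aurka and Kif20a (7.41%, against 4.11% of all probe sets). Both lay at or below the negative controls in MUP, and Kif20a did so on most arrays of HNK too.

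Bile acid and metabolic regulators held several of the larger single differences. Nr0b2, which encodes SHP, the repressor that the bile acid receptor FXR induces, was at 12.66, 11.23 and 12.48 in MUP and 11.11, 10.54 and 9.73 in HNK. MUP 2 lay 0.12 above HNK 1, and the difference was -1.66 (SE 0.39, adjusted p = 0.914 from limma). With the muscle level as a covariate its adjusted p was 0.0309. Nr1h4, the FXR gene, was also lower on all HNK arrays (-0.34), while Cyp7a1, the rate-limiting bile acid enzyme that SHP is known to repress, overlapped at 16.08, 16.88 and 16.57 against 14.74, 16.64 and 17.01. On the other side, Hsd3b7, an early enzyme of bile acid synthesis, was higher on all HNK arrays, at 13.23, 13.71 and 13.53 against at most 13.20 in MUP (0.39), as was the sterol transporter gene Abcg8 (0.27). Over the list, 10 of 20 genes had higher and 10 lower means. In each direction 2 separated the groups (10%, against 4.11% of all probe sets higher and 4.48% lower).

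Lpin1, a phosphatidate phosphatase and coactivator that fasting and glucocorticoids raise, was at 13.94, 12.76 and 13.46 in MUP and 10.96, 11.91 and 10.87 in HNK, a difference of -2.14 (SE 0.84, adjusted p = 0.998 from limma). WT was itself spread, at 9.40, 13.44 and 13.36. Ppp1r3b, which targets protein phosphatase to glycogen, was at 13.43, 12.87 and 12.73 against 11.49, 12.53 and 11.07. Irs1, the insulin receptor substrate, was higher on all HNK arrays, at 6.70, 6.83 and 7.12 against 6.08, 6.42 and 6.10. Of 18 measured glucose and glycogen genes 10 had higher and 8 lower means. Their median was 0.07, or -0.03 without MUP 2 and HNK 3. All HNK arrays lay above MUP in 1 of them (5.56%, against 4.11% of all probe sets) and below in 3 (16.7%, against 4.48%).

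Por, the reductase that feeds electrons to all microsomal P450 enzymes, was at 13.75, 13.75 and 14.26 in MUP and 12.28, 13.07 and 12.62 in HNK. Alas1, which starts heme synthesis, was at 17.41, 17.25 and 17.29 against 15.37, 16.37 and 16.60. Both had all HNK arrays lower, with differences of -1.27 (SE 0.38) and -1.20 (SE 0.61). Of the P450 genes, Cyp3a11 was at 17.76, 17.13 and 17.49 against 18.17, 17.79 and 17.57, and Cyp2a5 had all HNK arrays higher, at 19.09, 18.26 and 18.19 against 17.04, 18.09 and 17.59. Of the 16 measured genes of the xenobiotic receptors CAR and PXR, 10 had higher and 6 had lower means.

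Socs2, the feedback inhibitor of growth hormone signaling, was at 9.15, 10.09 and 11.02 in MUP and 7.99, 8.41 and 8.90 in HNK. The arrays did not overlap, and the difference was -1.66 (SE 0.39, adjusted p = 0.914 from limma). The other genes of its list had no common direction, with 9 of 20 higher and a median of -0.07, and Igf1, the main growth hormone product of liver, overlapped (-0.43). Among 23 lipid droplet and lipolysis genes 11 had higher and 12 lower means. Fitm1, which acts in droplet formation, was higher on all HNK arrays (0.48), as was the fatty acid transporter gene Cd36 (0.38), and the adipogenic receptor gene Pparg had 0.80 with overlap.

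Cxcl13, the B cell chemokine, was at 11.96, 10.29 and 9.89 in MUP and 6.05, 9.51 and 9.25 in HNK, with HNK 1 far below the others (-2.44, SE 1.13). Ccl2, the monocyte chemokine, was higher on all HNK arrays, at 6.59, 6.08 and 6.93 against 5.84, 5.51 and 5.76. Of 21 measured NF-kB and inflammatory cytokine genes 13 had higher and 8 lower means, and 6 lay near the negative controls in both groups. Their median was 0.11, or -0.07 without MUP 2 and HNK 3. All HNK arrays lay above MUP in 1 (4.76%, against 4.11% of all probe sets) and below in 2 (9.52%, against 4.48%). Among 25 acute-phase genes 17 had lower means, with a median of -0.22 that was -0.033 without MUP 3, and Saa3 spanned 11.75 to 15.86 in MUP and 11.39 to 13.38 in HNK. Of 22 fibrosis genes 14 had higher and 8 lower means, with a median of 0.17 that ranged from 0.0057 without MUP 3 to 0.41 without HNK 2.

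The globin genes of red cells separated the groups. Hba-a2 was at 16.45, 16.23 and 15.96 in MUP and 14.93, 14.10 and 14.34 in HNK, a difference of -1.76 (SE 0.30, adjusted p = 0.527 from limma). Hbb-bs was at 17.27, 18.51 and 17.52 against 16.54, 16.42 and 16.17 (-1.39, SE 0.28). Hba-a1 and Hbb-bt, which are near-identical to these and may share their signal, had -1.67 and -1.42. Alas2, the erythroid form of the heme enzyme, had -0.66 with overlap, while the erythroid Car1 was higher in HNK 2, at 11.03, than on any other array. Of 11 measured erythroid markers these 4 globin genes (36.4%, against 4.48% of all probe sets) were the ones without overlap, and as pairs of near copies they are fewer than 4 separate readings.

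Sinusoidal endothelial markers had lower means in 14 of 18, with a median of -0.46, or -0.14 without MUP 1 and -0.70 without MUP 2 and HNK 3. All HNK arrays lay below MUP in 1 marker (5.56%, against 4.48% of all probe sets) and above in 2 (11.1%, against 4.11%). The latter were the ligand genes Wnt2 and Wnt9b, both at or below the negative controls in MUP. Kdr, the VEGF receptor, was at 11.05, 10.21 and 10.45 in MUP and 10.03, 9.62 and 9.96 in HNK, without overlap (-0.70, SE 0.29). Clec4g, a lectin of these cells, was at 11.09, 10.06 and 11.55 against 10.18, 9.66 and 10.05, where MUP 2 lay with HNK. Gpr182 and Ehd3 had differences of -0.81 and -0.86, with MUP 2 again inside the HNK range. Neutrophil markers had lower means in 12 of 13, with a median of -0.36, or -0.71 without MUP 2 and HNK 3. Leaving out 1 array gave medians of -0.75 to -0.14. All HNK arrays lay below MUP in 3 of these markers (23.1%, against 4.48% of all probe sets), and 7 lay near the negative controls in both groups. The genes Ngp and S100a8 were high in MUP 1 alone. Ngp was at 9.03 there, at 4.41 and 4.78 in MUP 2 and MUP 3 and at 4.08, 3.28 and 3.13 in HNK, all of these at or below the negative controls, and S100a8 was at 8.58 in MUP 1 and between 4.65 and 5.34 on the other 5 arrays. No fold is given for them, since 1 MUP array carries the group mean. Biliary markers had higher means in 11 of 13, with a median of 0.30 that was 0.10 without HNK 3 and 0.22 without MUP 2 and HNK 3. All HNK arrays lay above MUP in 2 of them (15.4%, against 4.11% of all probe sets). Among these 2 was Pkhd1, the gene of fibrocystin, at 6.70, 6.92 and 7.73 against 8.48, 7.91 and 8.07.

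The remaining genes with the largest separate differences belong to no list. Rnf125, a ubiquitin ligase that acts on RIG-I, was at 12.87, 12.53 and 13.33 in MUP and 14.83, 14.17 and 14.21 in HNK (1.49, SE 0.31, adjusted p = 0.724 from limma). Ccn1, a matricellular protein gene, was at 7.30, 8.87 and 7.21 against 9.14, 9.53 and 9.04, with MUP 2 close to HNK. All HNK arrays were higher in both genes. Gm10639 was at 10.21, 10.17 and 9.98 in MUP and 12.45, 11.15 and 11.01 in HNK, with HNK 1 highest. The histone gene H3c11 was at 7.88, 8.32 and 7.69 against 9.51, 8.39 and 9.64, and H3c10 at 7.36, 7.66 and 7.46 against 9.04, 7.83 and 9.05, both with HNK 2 beside MUP. Socs6, of the cytokine signaling suppressors, and Lrrcc1, a centrosomal protein gene, had differences of 1.16 and 1.13, with MUP 2 close to HNK. Pcdh17, a protocadherin gene, was at 5.48, 5.67 and 5.24 against 6.96, 6.49 and 6.73 (1.27, SE 0.24, adjusted p = 0.527 from limma).

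On the lower side, St3gal5, the sialyltransferase that makes the ganglioside GM3, was at 13.31, 12.57 and 13.72 in MUP and 11.93, 11.82 and 11.16 in HNK (-1.57, SE 0.41). B3galt1, a galactosyltransferase gene, was at 12.52, 12.74 and 13.48 against 11.07, 12.48 and 10.57, where HNK 2 lay 0.03 below MUP 1. The predicted gene Gm6568 was at 8.27, 8.59 and 8.70 against 6.97, 7.22 and 6.82. Trim24, a nuclear receptor cofactor that restrains liver tumors in mice, was at 11.77, 11.29 and 11.71 against 10.16, 10.18 and 10.61. All its HNK arrays were at least 0.68 lower, and its difference was -1.27 (SE 0.22, adjusted p = 0.527 from limma), with WT at most 10.49. The MUP arrays enter both comparisons, with WT and with HNK, so the WT values given here are not an independent reading.

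**Figure D4:**
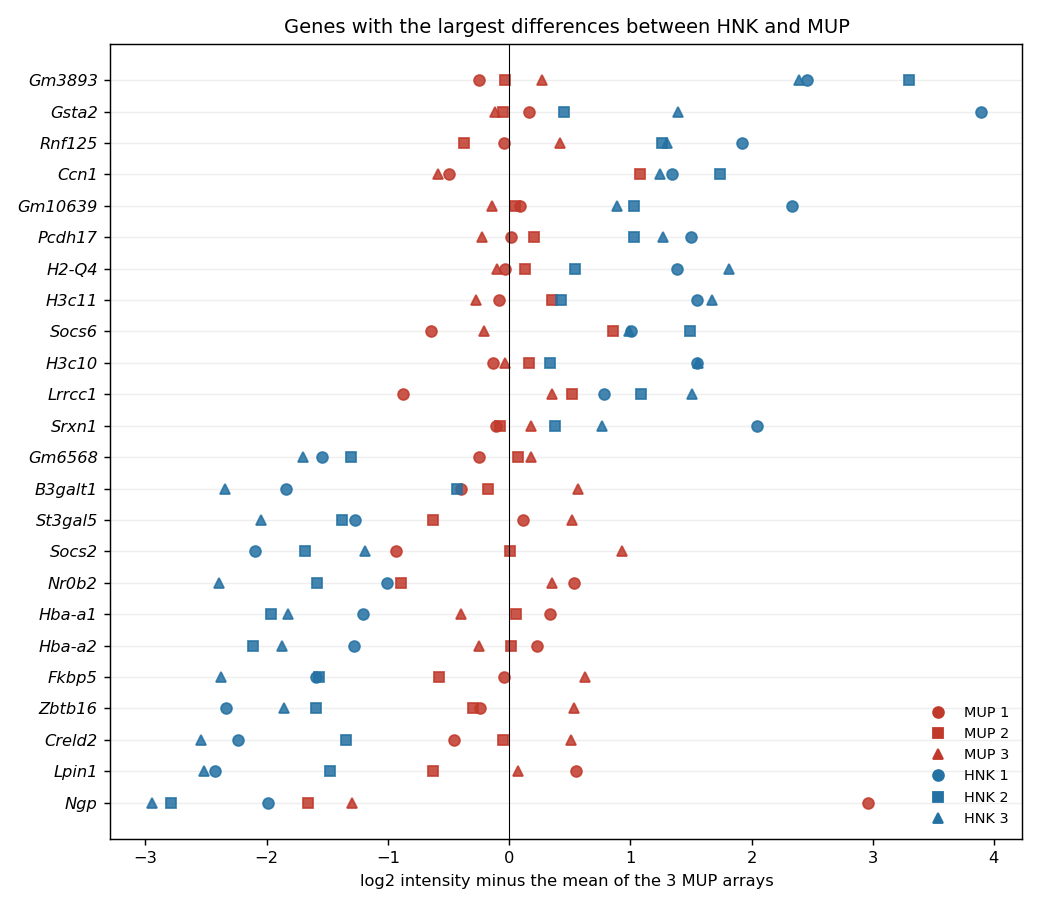
Log2 intensity minus the mean of the 3 MUP arrays (x axis) of the 12 named genes with the largest higher and the 12 with the largest lower mean in HNK among those without overlap (y axis), with MUP in red and HNK in blue and circles, squares and triangles for arrays 1, 2 and 3. Gsta2 is highest in HNK 1 alone, Ngp is high in MUP 1 alone, and Fkbp5, Zbtb16 and Creld2 have all HNK arrays at least 0.89 below all MUP arrays.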

How the data were processed

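Liver RNA of 9 samples (WT, MUP and HNK, 3 arrays each) was hybridised to Clariom S mouse arrays. The deposited values are linear intensities, 1 array per sample, which the authors normalized with RMA and Affymetrix Expression Console per the labels' processing notes, without versions, and their methods name the MicroArray Data Analysis Tool of Filgen. No genome build goes with these values, so probe sets have no coordinates here, and the number of arrays limits the precision. Log2 was taken of the deposited intensities, control rows were dropped, and 22206 probe sets were kept. The platform annotation gave 19572 of them 1 symbol, the study's supplementary gene table named 38 more, and 2596 stayed unnamed. Differences were fitted with limma 3.58.1 in R 4.3.3 on all 9 arrays, with a variance trend, no covariate, a two-sided test and Benjamini-Hochberg adjustment over all probe sets at 0.05. Where a group lay at the negative controls a fold is a bound, computed against their median on each array. SE and 95% intervals are of the fit. The script was tested on simulated data.

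The 44 gene lists, their members and the tests were chosen with earlier results of these data known. Lists were described by counts and medians, with no test. Named genes are Egfr, Fkbp5, Errfi1 and Nr3c1, which the study measured, Hsp90aa1 and Hsp90ab1, whose protein it discusses, any probe set past the threshold, the 12 largest in each direction among single-symbol probe sets with an unadjusted p under 0.05, no overlap and a brighter mean at least 1 log2 unit above the negative controls, and in each list up to 4 with the smallest p and those whose role is needed. Hsph1 was chosen after its values were seen. Promoters are RefSeq windows of GRCm38.p6. Alternatives were another set of arrays, normalization, filter, weighting, trend or test, a muscle covariate, a replicate block and leaving out arrays.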

Additional observations from a re-analysis of the deposited data

How the results depend on the processing

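The count of higher probe sets past the adjusted threshold, 1, became 0 with the arrays of MUP and HNK alone and without MUP 2 and HNK 3. It was also 0 with single-symbol probe sets alone, but that setting drops the unnamed probe set before the fit and cannot test its call. With the muscle covariate the higher count was 2 (Gm3893 was added), and the lower count went from 0 to 2 (Nr0b2 and Fkbp5, the latter at -1.86). Leaving out 1 array at a time gave 0 (without HNK 1) to 2 (without WT 2) higher and 0 lower. At an unadjusted p under 0.05, leaving out the dimmest probe sets gave 285 higher and 305 lower, and leaving out 1 array gave 396 to 783 higher (most without HNK 2) and 436 to 852 lower (most without MUP 2). Arrays of the same replicate number had correlations of deviations of 0.40, -0.16 and -0.29. MUP 2 and HNK 3, which carry muscle RNA and differ in number, had 0.54. With that signal in these values, they cannot decide whether the numbers pair the arrays. The fit with the replicate block called 1 higher and 0 lower. The direction of 8 genes with small differences turned. Without MUP 2 and HNK 3, Ddit3 was at 0.18, Hmox1 at -0.82 and Dbp at 0.036, and Dbp was at 0.0019 with cyclic loess. Leaving out 1 array gave ranges of -0.38 to 0.13 for Errfi1, -0.39 to 0.14 for Nr3c1, -0.23 to 0.19 for Atf4, -0.38 to 0.14 for Ddit3, -0.79 to 0.69 for Hmox1, -0.076 to 0.073 for Dbp, -0.82 to 0.32 for Cyp7a1 and -0.82 to 0.30 for Sdf2l1. The cause of these moves was not tested. Signal limits genes near the negative controls, where 42.2% of probe-set means lay.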

Other observations

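Replication-dependent histone genes, chosen after their values were seen, had higher means in HNK for 46 of 49 and lower means for 3, with a median difference of 0.52 that was 0.34 without MUP 2 and HNK 3. After each gene was centred on its mean over the 6 arrays, their median was 0.48 in HNK 1 and 0.48 in HNK 3, -0.18 in HNK 2 and -0.27, -0.15 and -0.31 in MUP 1 to MUP 3. By this median HNK 2 lay within the MUP range. In 11 of the 49 genes all HNK arrays lay above all MUP arrays, against 4.11% of all probe sets, and in 0 below. The histone genes are close copies, and their probe sets may share signal.

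The chemokine gene copies Gm13304 and Ccl21b, also chosen after their values were seen, were bright on the arrays with muscle RNA. Gm13304 was at 9.42 in MUP 2 and 9.28 in HNK 3, and at 4.18 to 4.64 on the other MUP and HNK arrays.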
